A study of Homo sapiens with 11 samples.

Results

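FN1, the gene of fibronectin, was followed in HCC78 cells, an established human lung adenocarcinoma line, for its mRNA level and for the use of its exons. Its level was read from the table of gene expression (1 gene of 57773, ENSG00000115414.14, in all 9 RNA-Seq libraries). All 23 of its splicing events were taken from 5 tables of events, which list 92662 different events in all. HCC78 itself carries the S34F allele of U2AF1, a subunit of the factor that recognises 3′ splice sites, beside the wild-type allele. It also carries a fusion of SLC34A2 with ROS1. Into these cells a FLAG-6xHA-tagged U2AF1, wild type (WT) or S34F, had been placed under a doxycycline-inducible promoter by lentiviral transduction, and the lines were stable subclones. The groups were the WT line with doxycycline (WT dox+, 2 libraries) and without it (WT dox-, 2 libraries), the S34F line with doxycycline (S34F dox+, 2 libraries) and without it (S34F dox-, 1 library), and the untransduced parental line (Parental dox-, 2 libraries). The labels place S34F at 12% and 14% of U2AF1 mRNA in WT dox+, 62% and 65% in S34F dox+, and between 28% and 33% in the other libraries. The parental libraries are labelled as without doxycycline, while a supplementary table of the study names them as with it.

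Fibronectin is a large glycoprotein of the extracellular matrix that binds integrins, collagen, fibrin and heparan sulfate, and cells assemble it into fibrils outside the plasma membrane. In carcinoma cells it is widely used as a mesenchymal marker. A single gene gives many protein forms, because the exons EDB and EDA are included or skipped and the V region (also called IIICS) is cut at several alternative splice sites. The first segment of the V region, CS1, holds a binding site for the integrin α4β1.

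The sequence at the start of the gene is shown because it is the regulatory sequence closest to the mRNA measured here, and no measurement of it was made. It is the RefSeq window of 250 bases before the start of FN1 on GRCh38.p14, chr2:215436069-215436318, minus strand, 5′ to 3′, with 4 searched motifs in capitals.

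FN1 promoter: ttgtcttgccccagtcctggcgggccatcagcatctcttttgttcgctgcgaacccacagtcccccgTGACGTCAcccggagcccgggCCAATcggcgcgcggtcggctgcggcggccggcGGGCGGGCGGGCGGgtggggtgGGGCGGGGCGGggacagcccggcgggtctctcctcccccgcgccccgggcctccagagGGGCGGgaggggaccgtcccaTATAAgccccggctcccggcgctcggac

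The capitals mark 1 cyclic AMP response element (TGACGTCA) that begins 183 bases before the start, 1 CCAAT box (CCAAT) at 162 bases, 6 GC boxes (GGGCGG, of which the first 3 overlap one another, as do the next 2) and 1 TATA-like motif (TATAA) at 28 bases. Both strands were searched. Of 35116 windows of the same length, the cyclic AMP response element was in 1.65%, CCAAT in 32.0%, GGGCGG in 42.6% and TATAA in 18.9%. These matches describe letters only.

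The 9 libraries differed in breadth. The number of genes at 1 FPKM (fragments scaled for transcript length and library size) or above was 15736 to 20896 in the dox+ libraries and 13661 to 14688 in the others. Both ends of the dox+ range were S34F dox+ libraries, replicate 1 the lowest and replicate 2 the highest. U2AF1 itself, the induced gene, was at 164 and 223 FPKM in S34F dox+ and at 278 and 299 FPKM in WT dox+, against 103 to 115 FPKM in the other libraries. All 6 epithelial markers were detected at a mean of 1 FPKM or above, with a summed level of 8422 to 11420 FPKM over the libraries. Of 5 lung adenocarcinoma markers, 4 reached it, with a summed level of 109 to 153 FPKM in the transduced lines and 217 to 277 FPKM in the parental line. That sum includes the fusion partners SLC34A2 (40.1 to 70.5 FPKM transduced, 115 and 166 FPKM parental) and ROS1 (8.63 to 17.1 FPKM, 26.1 and 37.8 FPKM). NAPSA was at 1.73 to 4.02 FPKM in the transduced lines and at 7.39 and 9.97 FPKM in the parental one. NKX2-1 was at 49.05 to 62.3 FPKM and at 67.8 and 61.3 FPKM. Of the fibroblast markers, 3 of 7 reached a mean of 1 FPKM. The summed level of all 7 was 6.74 to 14.7 FPKM in the dox+ libraries and 4.55 to 8.34 FPKM in the others. The 3 were COL1A1 (mean 4.29 FPKM), DCN (1.22 FPKM) and THY1 (1.01 FPKM), with mean doxycycline responses (dox+ minus dox-, averaged over both lines) of 0.59, 0.86 and 0.15 in log2(FPKM + 1), none of which passed the test (limma, adjusted p = 0.165, 0.289 and 0.806). COL1A2, COL3A1, LUM and PDGFRB, which also define fibroblasts, had means of 0.454, 0.678, 0.142 and 0.786 FPKM. PDGFRB was at 1.04 and 1.18 FPKM in WT dox+ and at 0.32 and 2.73 FPKM in S34F dox+. It was at 0.09 to 0.70 FPKM in the libraries without doxycycline. COL3A1 was at 2.46 and 1.02 FPKM in WT dox+ and at 0.34 and 0.18 FPKM in S34F dox+, against 0.02 to 0.97 FPKM without doxycycline. Of the leukocyte markers, 1 of 4 reached a mean of 1 FPKM (PTPRC, mean 1.10 FPKM). Their summed level was 2.02 to 5.10 FPKM in the dox+ libraries and 0.38 to 2.17 FPKM in the others. PTPRC was at 1.57 and 1.65 FPKM in WT dox+ and at 1.57 and 2.71 FPKM in S34F dox+, above the 0 to 1.13 FPKM of the others, with a mean response of 0.94 (limma, adjusted p = 0.115). The 2 endothelial markers listed (VWF and CDH5) did not reach a mean of 1 FPKM, though VWF was at 1.21 FPKM in WT dox+ replicate 1. Their summed level was 0.04 to 1.86 FPKM in the dox+ libraries and 0.14 to 0.66 FPKM in the others. The part of the breadth of the libraries and of these low markers in the FN1 result was not tested.

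FN1 was highest in the cells with induced S34F, next in those with induced wild-type U2AF1, and lowest without induction. It was at 147 and 126 FPKM in S34F dox+, replicate 1 first. It was at 95.3 and 97.7 FPKM in WT dox+. In the cells without doxycycline it was at 57.4 and 49.5 FPKM in WT dox-, at 51.1 FPKM in S34F dox-, and at 36.6 and 43.3 FPKM in Parental dox-. All 4 dox+ libraries lay above all 5 others, both S34F dox+ libraries lay above both WT dox+ libraries, and the S34F dox- library lay between those of WT dox-. Of 15179 genes with a mean of 1 FPKM or above, 7.64% had every dox+ library above all 5 others, and 20.5% had both S34F dox+ libraries above both WT dox+ libraries. In bulk RNA, more cells with FN1 and more FN1 RNA per cell cannot be told apart. Among 20327 protein-coding genes, FN1 ranked 635th and 710th in S34F dox+, 1025th and 1023rd in WT dox+, and between 1860th and 2987th in the others. The group means were 136.5 ± 15.2 FPKM (SD, n = 2) for S34F dox+, 96.5 ± 1.74 FPKM (SD, n = 2) for WT dox+, 53.45 ± 5.63 FPKM (SD, n = 2) for WT dox- and 39.9 ± 4.745 FPKM (SD, n = 2) for Parental dox-.

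**Figure D1:**
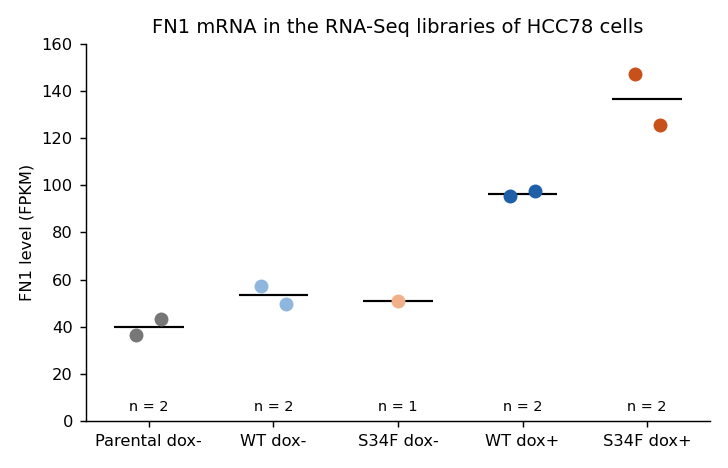
FN1 level in FPKM (y axis) in each of the 9 libraries by group (x axis); each point is 1 library and each line the group mean. The dox+ libraries sit between 95.3 and 147 FPKM and the others between 36.6 and 57.4 FPKM.

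FN1 was higher with doxycycline in both lines, and the difference passed the test in the S34F line and over both lines together, but not in the wild-type line alone. No untransduced library is labelled as with doxycycline, so the drug and the induced U2AF1 cannot be told apart. In the S34F line, the mean level was 2.67-fold that without doxycycline. On the log2(FPKM + 1) scale, where a pseudocount of 1 slightly understates a fold, this was 1.40 ± 0.17 (SE, limma, Benjamini-Hochberg adjusted p = 0.032). Of 15179 genes tested, 0.283% were called in that comparison (43 genes, 30 of them higher). The call rested on the spread over all groups: it was lost when any 1 of the 8 libraries that could be left out was left out, from either line or from the parental one, with adjusted p between 0.0632 and 0.12. With median-ratio scaling of the libraries it was lost as well (1.12, adjusted p = 0.107). In the wild-type line, FN1 was 1.81-fold, a log2 difference of 0.84 ± 0.14 (SE, limma, adjusted p = 0.101), where 0.0132% of genes were called, so it did not pass the threshold there.

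The mean response of both lines, a comparison chosen after the values had been seen, gave FN1 a log2 difference of 1.12 ± 0.11 (SE, limma, adjusted p = 0.0066), with 3.88% of genes called. FN1 was higher in 4 of 4 dox+ libraries than in every dox- library of the same lines, as were 15.2% of the genes tested. Of the genes tested, 4.14% had a larger absolute difference than FN1, and the median over all genes was 0.08. Without the first or the second WT dox+ library the adjusted p was 0.057 or 0.055.

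Between the lines, FN1 was 1.41-fold in S34F dox+ over WT dox+. The log2 difference was 0.49 ± 0.14 (SE, limma, adjusted p = 0.546), while 0.0527% of genes were called (3 higher and 5 lower), so it did not pass the test. FN1 did not overlap between these groups, and the exact permutation test with 2 libraries against 2 cannot go below p = 0.333. Without induction, the S34F and wild-type lines differed by -0.06 ± 0.17 (SE, limma, adjusted p = 1), where 0.0461% of genes were called. The difference between the doxycycline responses of the S34F and wild-type lines was itself tested and was 0.55 ± 0.22 (SE, limma, adjusted p = 1, with 0.0264% of genes called). Thus, the larger response of the S34F line was not shown to differ from that of the wild-type line. Each construct was in its own line, so line and construct cannot be told apart when the lines are compared. Total U2AF1 mRNA also differed, at a mean of 193.6 FPKM in S34F dox+ and 288.3 FPKM in WT dox+, and its part was not tested.

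WT dox- was 1.34-fold over Parental dox-, a log2 difference of 0.41 ± 0.14 (SE, limma, adjusted p = 0.294), where 0.0988% of genes were called. By mean, the order of the FN1 levels was S34F dox+, WT dox+, WT dox-, S34F dox- and Parental dox-. None of the first 4 groups differed from its neighbour in this order at an adjusted p under 0.05, and S34F dox- against Parental dox- was not tested on its own.

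**Figure D2:**
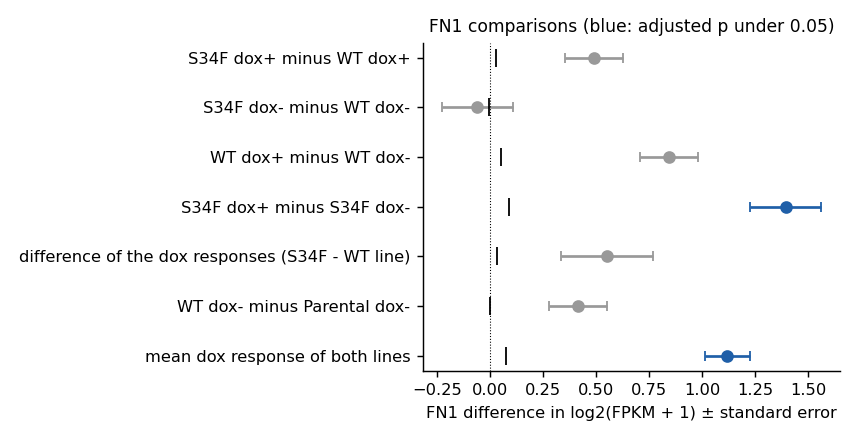
Differences of FN1 in log2(FPKM + 1) (x axis, points with standard errors) for the 7 comparisons (y axis); blue points have an adjusted p under 0.05 and vertical ticks mark the median of all 15179 genes. The 2 blue points are the response of the S34F line at 1.40 and the mean response of both lines at 1.12.

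The genes whose levels were most like those of FN1 over the 9 libraries were sought among 9276 protein-coding genes that averaged 5 FPKM or more, by Pearson correlation of log2(FPKM + 1). The 5 closest were DST (r = 0.98), a cytolinker of the plakin family, BIRC6 (r = 0.98), an inhibitor of apoptosis, WNK1 (r = 0.98), a kinase, C1orf112 (r = 0.97) and GXYLT1 (r = 0.96), a xylosyltransferase. The 9 libraries share treatments and are not independent points, so these values describe likeness only. DST was at 140 and 134 FPKM in S34F dox+ and at 105 and 107 FPKM in WT dox+. It was at 70.95 and 70.65 FPKM in WT dox-, at 70.6 FPKM in S34F dox- and at 65.75 and 58.45 FPKM in the parental line. As for FN1, the S34F dox+ libraries were highest and the parental ones lowest, but the mean doxycycline response of DST, 0.76 on the log2 scale, was smaller than that of FN1, and that of C1orf112 was 0.30.

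The use of FN1 exons was compared between S34F and wild-type conditions in the tables of splicing events. Each table gives 1 PSI (percent spliced in, a fraction from 0 to 1) per event and condition, without replicates, so no spread, interval or test can be given. The difference S34F minus wild type was computed from these. The FN1 events were 12 skipped exons, 3 alternative 3′ splice sites, 4 alternative 5′ splice sites, 1 NAGNAG acceptor and 3 retained introns, and they had 3861 to 8182 reads per condition. Apart from the event of 3 acceptors, each had 7331 to 8182 reads per condition. Events at 51.65 and 74.4 kb from the gene start had the same counts, 7726 in S34F and 7967 in wild type. The count is therefore not read as the depth of a single event, and the events are not independent of one another. In every FN1 event the count was lower in S34F than in wild type, while the FN1 FPKM was 1.41-fold in S34F dox+ over WT dox+. The depth of each side is unknown, and the cause was not tested. All 23 events had at least 10 reads over both conditions, and 6 of them were at least 0.10 apart in PSI. Among all events with that many reads 33.0% were as far apart. Among those listed with at least 1000 reads in each condition, as the FN1 events were, it was 11.1%. Of the skipped exons, 5 of 12 FN1 events were at least 0.10 apart, against 32.0% of all skipped exon events. The median absolute difference was 0.01 over the FN1 events and 0.01 over all events with at least 1000 reads in each condition. Among 2692 genes with an event of that count, 19 genes, FN1 included, had 6 or more events that far apart. This was not adjusted for the number of events per gene, and 5 of the 6 FN1 events lay in the V region.

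The FN1 differences lay in and next to the V region. Of 8 events in the V region, 5 were at least 0.10 apart, and of the 15 others 1 was. The V region follows the exon that ends at position 216238045 on chromosome 2 (GRCh37/hg19, minus strand), and its exon can begin at any of 3 acceptors. Acceptor 1, at 216237098, gives an exon of 467 bases with the whole V segment of 360 bases or 120 amino acids, the form V120. Acceptor 2, at 216237023, leaves out the first 75 bases, the 25 amino acids of the CS1 segment (chr2:216237024-216237098), and gives V95. Acceptor 3, at 216236738, leaves out all 120 amino acids and gives V0. A further intron of 93 bases inside the exon (chr2:216236739-216236831) removes the last 31 amino acids, turning V120 into V89 and V95 into V64. The genome sequence of this build was not used here, so the letters of these splice sites are not shown.

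The event that sets the 3 acceptors against one another gave acceptor 1 a share of 0.55 in wild type and 0.35 in S34F. The share of acceptor 2 was 0.10 in wild type and 0.17 in S34F, and that of acceptor 3 was 0.35 and 0.48. This event had 5249 reads in wild type and 3861 in S34F. In this event acceptor 1, the only one that keeps CS1, thus led in wild type and acceptor 3, which gives V0, led in S34F, with differences of -0.20, 0.07 and 0.13. Acceptor 1 did not fall behind acceptor 3 in every event: set against acceptor 3 alone, a skipped exon event gave it 0.57 in S34F. In the event of 3 acceptors, acceptor 2 held less than acceptor 3 and was higher in S34F. Set against acceptor 3 alone, a skipped exon event gave it 0.64 in wild type and 0.48 in S34F, a difference of -0.16. The shares therefore hold within this event of 3 acceptors only.

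**Figure D3:**
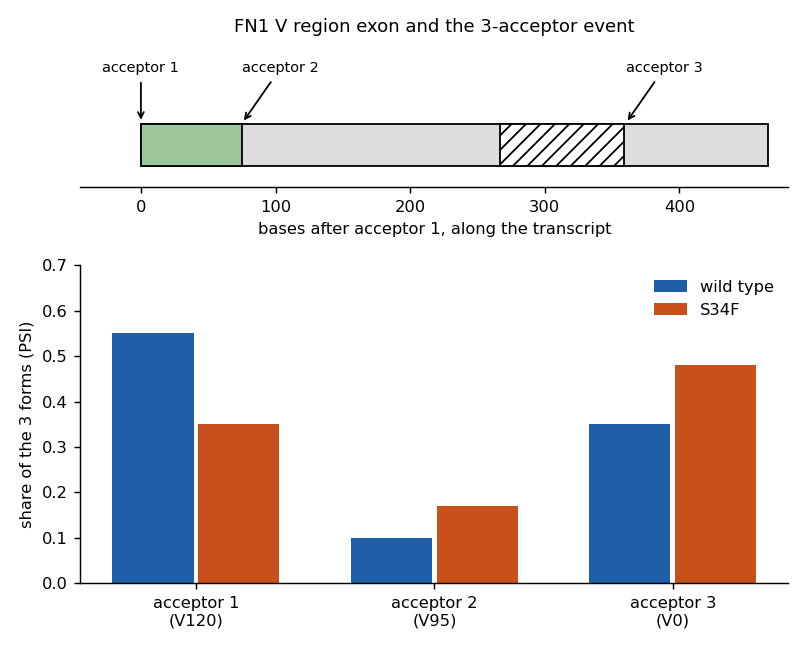
Top, map of the FN1 V region exon drawn to scale in bases after acceptor 1, with the CS1 segment in green, the internal intron hatched and the 3 acceptors as arrows. Bottom, share of each acceptor (PSI, y axis from 0) in wild type (blue) and S34F (orange), 1 value per condition; acceptor 1 is at 0.55 in wild type and 0.35 in S34F, and acceptor 3 at 0.35 and 0.48.

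The skipped exon events, each of which weighs 2 forms only, pointed the same way for the outer acceptors. The exon from acceptor 1 to the internal intron (267 bases, V89) had a PSI of 0.81 in wild type and 0.57 in S34F against the form that joins acceptor 3, a difference of -0.24. The exon from acceptor 2 (192 bases, V64) had a PSI of 0.64 and 0.48 against the same form, a difference of -0.16. Of 7287 skipped exon events listed with at least 1000 reads in each condition, 121 had an absolute difference of 0.24 or more. The 0.24 was picked as the largest of the 12 FN1 skipped exon events, so this count overstates how rare it is. A further form joins the donor before the V region to the acceptor at 216232750, passing over the V exon and the exon after it. Against that form, the PSI was 0.43 in wild type and 0.33 in S34F for acceptor 1. It was 0.19 and 0.22 for acceptor 2, and 0.04 and 0.19 for acceptor 3. The event of 3 acceptors gave acceptor 3 shares of 0.35 and 0.48. The levels thus differ between events and are not read as shares of FN1 mRNA. Over all events from this donor, acceptor 1 was lower in S34F in 3 of 3, acceptor 3 was higher in 4 of 4, and acceptor 2 was higher in 2 of 3. Because these events share forms, their counts are not separate evidence.

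The internal intron of the V region was removed at nearly the same share in both conditions. Its event had a PSI of 0.79 in wild type and 0.76 in S34F, read as the share with the intron removed. The neighbouring donor 4 bases away was used at 0.02 in both conditions. Just after the V exon, the acceptor at 216235150 had a PSI of 0.87 in wild type and 0.97 in S34F against skipping of its exon. The same exon read from the acceptor at 216235155, which held all but 0.02 of the pair in both conditions, had 0.98 and 0.99.

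EDA and EDB, the other classical alternative exons of FN1, differed little. EDB was taken as the skipped exon nearest the start of the gene. EDA was taken as the skipped exon whose skipping junction is that of a listed retained intron. No annotation of GRCh37/hg19 was used here, so both names were not checked. The EDA exon (acceptor at 216245803) had a PSI of 0.58 in wild type, with 8173 reads, and of 0.60 in S34F, with 7869 reads. The EDB exon (acceptor at 216257926) had a PSI of 0.05 in wild type and 0.03 in S34F. The form with EDA was thus the more frequent and the form with EDB the rarer in both conditions, and neither event was 0.10 apart. Outside the V region, the largest difference was the 0.10 at 216235150 and the next was -0.05, for an acceptor pair 6 bases apart at 216271233 and 216271227, with a PSI of 0.09 in wild type and 0.04 in S34F. In 13 of the 22 events with a single PSI, it was at most 0.05 or at least 0.95 in both conditions.

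**Figure D4:**
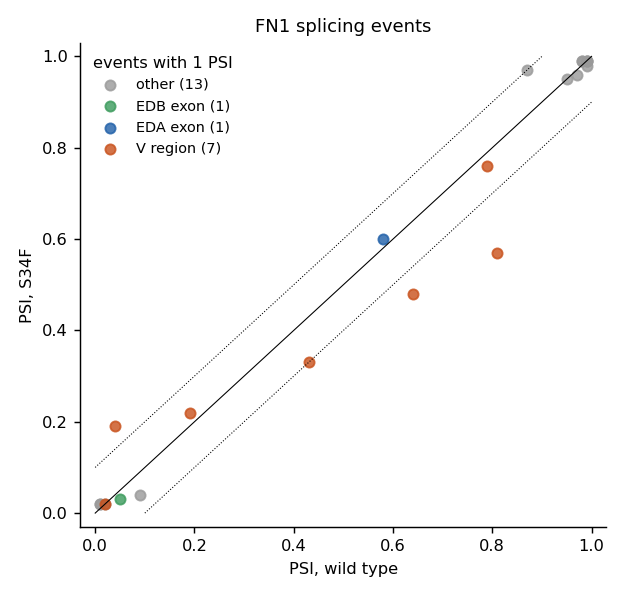
PSI of the 22 FN1 events that have a single value, in wild type (x axis) and S34F (y axis), coloured by region; the solid line marks equal PSI and the dotted lines a difference of 0.10. The V region points reach -0.24 from the solid line, and the EDA and EDB points lie within 0.02 of it.

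The partners of fibronectin were read from 4 lists of genes. None of the 48 tested members was called between S34F dox+ and WT dox+, where limma called 0.0527% of all genes. Of the 48, 2 had an unadjusted p under 0.05, against 6.78% of all genes. Of 17 receptor genes, 12 had a mean of at least 1 FPKM and were tested, and their median log2 difference was 0.04, against 0.03 over all genes. ITGB1, the integrin β1 chain that pairs with most fibronectin-binding α chains, had the highest mean, 580.9 FPKM, with a log2 difference of 0.24 ± 0.11 (SE). ITGA3, the integrin α3 chain, differed by -0.11, and SDC4 and SDC1, syndecans that bind the heparin sites of fibronectin, by -0.24 and 0.04. ITGB3, the β3 chain of the αv receptor, was chosen after its values were seen as the receptor with an unadjusted p under 0.05. It was at 4.09 and 1.89 FPKM in S34F dox+ and at 0.53 and 0.33 FPKM in WT dox+, a log2 difference of 1.43 ± 0.41 (SE, limma, adjusted p = 0.555). ITGA4, the α4 chain of the receptor for CS1, ranged from 0.07 to 3.46 FPKM, the ends of which were the S34F dox+ libraries. Its mean was 0.693 FPKM, or 0.348 FPKM without the second S34F dox+ library, and it was not tested, and ITGA5, the α5 chain of the main fibronectin receptor, had a mean of 10.2 FPKM.

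In the mean doxycycline response, where 3.88% of all genes were called, 1 of 12 tested receptors passed and rose, ITGB8, the β8 chain that pairs with αv. It was at 8.62 and 6.53 FPKM in S34F dox+ and at 8.16 and 6.55 FPKM in WT dox+, against 4.02 and 4.57 FPKM in WT dox- and 2.76 FPKM in S34F dox-. Its log2 difference was 0.92 ± 0.16 (SE, limma, adjusted p = 0.0339), a call that was lost without any 1 of the 8 libraries that could be left out (adjusted p between 0.0562 and 0.132). It was also lost with quantile normalization (adjusted p = 0.1) and with no minimum FPKM (0.0906). The parental libraries, at 5.97 and 6.99 FPKM, overlapped with the dox+ ones, unlike for FN1.

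Of 20 matrix genes that bind or process fibronectin or lie with it in the matrix, 14 were tested. The median log2 difference between S34F dox+ and WT dox+ was 0.004, and that of the mean doxycycline response was 0.41, against 0.08 over all genes. The response was positive in 11 and negative in 3. Members named here after their values were seen include the weak DCN, LTBP1 and FBN1 (means 1.22, 1.07 and 2.06 FPKM), with 0.86, 0.71 and 0.54. SPARC (2.11 FPKM) had -0.34, and the more abundant THBS1 (29.25 FPKM) had -0.41. The part of expression level in this median was not tested. In the mean doxycycline response, with 3.88% of all genes called, 1 of 14 passed and rose, HSPG2, which encodes perlecan, with 0.87 ± 0.18 (SE, limma, adjusted p = 0.0468). It was at 35.6 and 55.6 FPKM in S34F dox+ and at 42.8 and 46.0 FPKM in WT dox+, against 21.85 to 30.6 FPKM in the 5 other libraries. Its call held without the first S34F dox+ library (adjusted p = 0.0405) and was lost without any other 1 (0.0624 to 0.148). It was also lost with quantile normalization (0.0653), in TPM (0.0581) and with no minimum FPKM (0.137). TGFBI, a matrix protein induced by TGF-β, had the highest mean, 798 FPKM, and differed by 0.003 between S34F dox+ and WT dox+ and by 0.30 in the mean response. IGFBP3, which binds insulin-like growth factors, differed by 0.11 and 0.04, and TGM2, a transglutaminase that crosslinks fibronectin, by -0.16 and -0.54. TNC, tenascin-C, named after its values were seen, was at 11.2 and 9.14 FPKM in S34F dox+ and at 2.90 and 3.96 FPKM in WT dox+, a log2 difference of 1.34 ± 0.22 (SE, limma, adjusted p = 0.282). It was at 7.55 FPKM in the single S34F dox- library, at 3.09 and 2.08 FPKM in WT dox- and at 7.22 and 6.34 FPKM in Parental dox-. Without induction, S34F and WT were 1.27 ± 0.27 apart (SE, limma, adjusted p = 0.759), which did not pass the test.

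The TGF-β pathway, a known inducer of FN1, had 11 of 12 genes tested, and none was called between S34F dox+ and WT dox+ or in the mean doxycycline response, where limma called 0.0527% and 3.88% of all genes. At an unadjusted p under 0.05 there were 0 and 1 of them, against 6.78% and 25.1% of all genes. The median differences were -0.02 and 0.09. The receptor-regulated SMAD3 and SMAD2 differed between S34F dox+ and WT dox+ by -0.20 and -0.07, SMAD4, their common partner, by 0.05, and SKIL, which represses SMAD activity, by 0.03.

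The list of 11 proteins that bind FN1 pre-mRNA or are known to act on its alternative exons was expressed throughout, at a summed 2125 to 2545 FPKM. None was called between S34F dox+ and WT dox+, against 0.0527% of all genes, and 0 had an unadjusted p under 0.05, against 6.78%. In the mean doxycycline response none was called either, against 3.88% of all genes. There, 6 of 11 had an unadjusted p under 0.05, against 25.1% of all genes. The differences were negative for 9 of 11, against 41.5% of all genes, with a median of -0.17 against 0.08 over all genes. All 11 were well expressed, with means of 24.9 to 1192 FPKM. The median over all genes was -0.01 among those that averaged 5 FPKM or more. With median-ratio scaling it was -0.10, where the median of the 11 was not computed. The part of expression level and scaling in this difference was not tested. HNRNPA1, the most abundant, differed by -0.12 between S34F dox+ and WT dox+, PTBP1, which represses many exons, by -0.07, TRA2B, an activator of exons, by -0.05, and SRSF5, an SR protein, by -0.09.

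**Figure D5:**
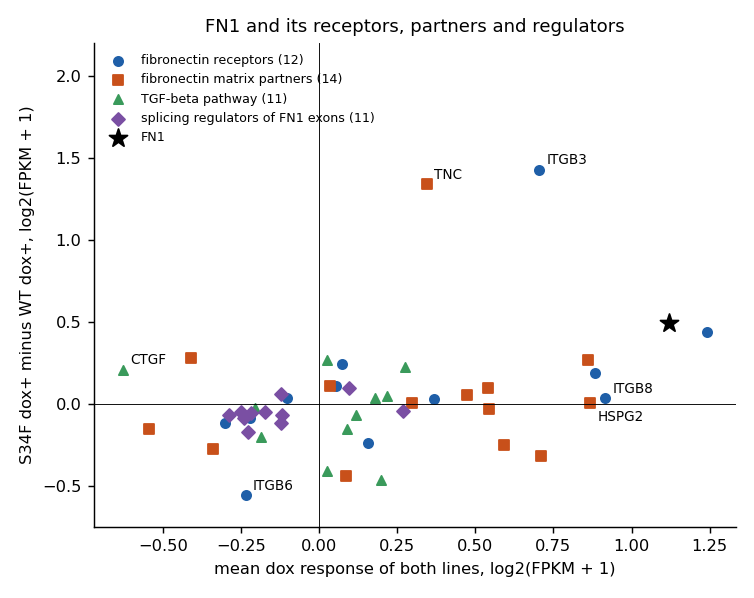
Log2(FPKM + 1) differences of the 48 tested list members and of FN1 (star) in the mean doxycycline response of both lines (x axis) and between S34F dox+ and WT dox+ (y axis), by list; each point is 1 gene, and both axes share the dox+ libraries. FN1 lies at 1.12 and 0.49, and TNC and ITGB3 lie highest on the y axis at 1.34 and 1.43.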

How the data were processed

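RNA-Seq libraries were made by the authors from total RNA with a stranded kit and sequenced in 150-base read pairs trimmed to 100. They were aligned with STAR 2.3.0 and quantified with RSEM 1.2.29 on GRCh37/hg19, per the labels and the submitters' processing notes. The deposited values are FPKM and TPM per gene, normalized by the authors for transcript length and library size. No counts per gene were used here, so depth is unknown and no counting interval is given. For splicing, the deposited tables hold, for each event, PSI as a fraction estimated by the authors with MISO and the count of reads in each condition. Side 1 is read as S34F and side 2 as WT from the order in the tables' titles. Across 6612 genes the read ratio between the sides had a Spearman rho of 0.561 with the dox+ FPKM ratio (S34F line over WT line) and of 0.191 with the dox- one, genes not being independent replicates. For FN1 itself the read counts and the dox+ FPKM went opposite ways. How the authors combined replicates is not given in the sources used here. The tables also hold the authors' own differences and Bayes factors, which were not used.

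Expression was tested with limma 3.58.1 (trend) in R 4.3.3 on log2(FPKM + 1), over the 15179 genes that averaged 1 FPKM or more, in 1 fit of the 5 groups without covariates, with Benjamini-Hochberg adjusted p. S34F dox- is 1 library, whose spread was taken from the other groups. The labels do not say that replicates were separate cultures, so p-values measure only the spread between these libraries. The genes, lists and events were chosen with earlier results of these data known. Named genes are FN1, the 4 members of each list with the highest mean FPKM, any member called between S34F dox+ and WT dox+, the 5 genes most like FN1 and all FN1 events, and other genes named are said to be chosen after their values were seen, or were called in the mean doxycycline response, or define a receptor or cell type.

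In events of 2 splice sites, PSI was read as the share of the second-named site: where only the first was used by skipped exon events the median PSI was 0.05 for alternative 3′ sites (n = 794), and where only the second was, 0.92 (n = 405). Values of 3-acceptor events were read in the order of naming, since in 61 of 68 such events the largest value was at the acceptor that skipped exon events use. PSI of retained introns was read as the share spliced out, its median being 0.89. Of the event tables, 16811 repeated rows were left out. The settings varied were the thresholds on events, each library left out, a replicate block, TPM, protein-coding genes, scaling, the FPKM minimum and the pseudocount. Those for the mean doxycycline response were chosen after seeing the data. Binding data were not analysed here.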

Additional observations from a re-analysis of the deposited data

How the results depend on the processing

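For FN1, S34F dox+ against WT dox+ kept its direction and missed the threshold under all 18 alternatives (log2 difference 0.37 to 0.60, adjusted p 0.387 to 1), as did WT dox- against Parental dox- under 17 (0.29 to 0.53) and the difference of the doxycycline responses under 16 (0.40 to 0.66). S34F dox+ against S34F dox- stayed between 1.12 and 1.51 but missed the threshold with median-ratio scaling (1.12, adjusted p = 0.107), with the replicate block (1.375, adjusted p = 0.0928) and in the fits without 1 library (1.28 to 1.51). That scaling moved the median of all genes from 0.09 to -0.16, and relative to this median FN1 was at 1.31 in the deposited FPKM and 1.28 after scaling. WT dox+ against WT dox- passed only among protein-coding genes (0.84, adjusted p = 0.047). S34F dox- against WT dox- turned to 0.0292 with median-ratio scaling and lay between -0.17 and 0.0456 without 1 library, the latter without the first WT dox- library. The mean response of both lines lay between 1.06 and 1.18 without 1 library, and missed the threshold without either WT dox+ library. No fit without the S34F dox- library could give the comparisons that need it. Where no value is given, the cause was not tested.

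The replicate numbers did not pair the libraries: deviations of same-numbered libraries from their group means correlated between -0.0756 and 0.0374. The replicate block took the mean response of FN1 to 1.11 (adjusted p = 0.0228, 242 genes called against 589) and the adjusted p of ITGB8 and HSPG2 to 0.0594 and 0.0528, and it moved the genes called in S34F dox+ against S34F dox- from 43 to 4. It changed no other FN1 call.

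The number of genes called depended on the setting: 8 against 3 to 28 for S34F dox+ against WT dox+, 7 against 2 to 112 for S34F dox- against WT dox-, 2 against 0 to 32 for WT dox+ against WT dox-, 43 against 4 to 148 for S34F dox+ against S34F dox-, 4 against 0 to 33 for the difference of the responses, 15 against 3 to 58 for WT dox- against Parental dox-, and 589 against 25 to 1181 for the mean response. Of those 589 genes 72% were higher, against 28.7% with median-ratio scaling, 71.3% with quantile normalization and 56.3% in TPM. In S34F dox+ against S34F dox- the share was 69.8%, against 46.7%, 59.4% and 50%, in the same order. In S34F dox+ against WT dox+ it was 37.5%, against 16.7%, 50% and 16.7%.

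Of the FN1 events, 6 were at least 0.10 apart, 7 at least 0.05 and 2 at least 0.20, and the count was 6 with 10 or 1000 reads required in each condition and 7 with every form of the 3-acceptor event counted. No list member was called between S34F dox+ and WT dox+ under any of 18 alternatives. Unknown depth limits the FPKM, and PSI without replicates carries no error.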
